A study of Mus musculus with 6 samples.

Results

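The genes described here encode the translation initiation factors (eIF) and elongation factors (eEF) of the mouse, measured in embryonic lenses of wild type mice and of mice whose transcription factor gene Prox1 was deleted in the lens. Members were chosen by name: a feature was included where its symbol begins with Eif and a digit from 1 to 6, or with Eef1 or Eef2. Of 71 matching names, 7 names of pseudogenes and the Y-linked Eif2s3y were left out, which gave 63 genes of the 41102 features kept. Of these, 58 passed the filter on low counts, and all 63 matched a gene of the GENCODE annotation of the GRCm38 build. Expression values were not used in the choice. The name also takes in Eif2c5, which is an Argonaute-named gene and not a translation factor, and the regulators that carry the names (the eIF2 kinases, the eIF4E-binding proteins and eEF2 kinase).

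Poly(A)-selected RNA was sequenced from 3 libraries of Prox1 cKO lenses (Prox1 f/f; MLR10Cre+) and 3 libraries of wild type lenses, all at embryonic stage E13.5 and all given as strain C57Bl/6. MLR10-Cre acts in lens epithelium and fibre cells, and none of the groups had the Cre transgene or the floxed alleles alone. One biological replicate is a pool of 30 lenses. Whether litters contributed to more than 1 pool is not stated in the labels, and p-values cover only the spread from pool to pool.

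Translation initiation places a ribosome on the start codon. eIF2 carries the initiator tRNA to the small subunit, eIF1, eIF1A and eIF3 prepare that subunit, eIF4 factors bring it to the capped mRNA, and eIF5 and eIF5B complete the start. Elongation factors then deliver the aminoacyl-tRNAs and move the ribosome along. Lens fibre cells, which elongate at this stage, make crystallins in very large amounts.

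The library totals were between 9082219 and 28391662 counts in the knockout and between 20731491 and 21061582 in the wild type. Prox1 itself had 651, 728 and 707 CPM (counts scaled by sequencing depth, here with the TMM factors of edgeR) in the knockout against 922, 1215 and 1246 in the wild type. The groups did not overlap, and Prox1 was 1.62-fold lower (log2 change -0.70, adjusted p = 0.0074 by edgeR), but the labels used here do not name the floxed exons, so counts over the whole gene check the labels only in part. Crystallins took 2.86%, 2.83% and 3.14% of the counts in the knockout against 13.2%, 21.5% and 22.7% in the wild type, so wild type library 1 stood apart from the other two. Of 13 lens markers tested, 11 were called lower in the knockout and 1, Pax6, was called higher (log2 change 0.46, adjusted p = 0.0225 by edgeR). Summed markers of other tissues ranged from 263 to 728 CPM in the knockout against 81.1 to 190 in the wild type for pigment cells, from 503 to 2515 against 152 to 390 for periocular mesenchyme, from 24.9 to 110 against 17.2 to 25.7 for surface ectoderm, and from 345 to 544 against 220 to 341 for neural retina. Of these markers 5 of 6, 3 of 6, 4 of 5 and 2 of 7 tested genes were called higher, the mesenchymal marker Foxc2 was at 0 counts in all libraries, and the part of these cells in the results below was not tested. Neuron markers summed to between 81.7 and 96.5 CPM in the knockout and between 76.6 and 126 in the wild type, with 1 of 6 called lower. Of 8 erythroid genes 3 were called higher, but their sums overlapped, from 1402 to 2237 CPM in the knockout against 777 to 2591 in the wild type. Sums ranged from 372 to 503 CPM against 234 to 433 for endothelium, from 65.4 to 90.2 against 36.4 to 78 for macrophages and from 3.12 to 36.3 against 2.66 to 14.2 for skeletal muscle, and these ranges overlapped.

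Most translation factor genes were modestly lower in the knockout relative to the typical gene. Of the 58 tested, 35 were called at an adjusted p under 0.05 by edgeR, which is 60.3%, against 32.6% of all 14271 features tested. The 33 called lower made up 56.9% of the members, against 16.8% of all features, and the 2 called higher made up 3.45%, against 15.9%. The 33 fold decreases ran from 1.25 to 2.45 with a median of 1.35. Decreases of at least 2-fold were made by 3 members, 5.17% of those tested, which is close to the 5.11% of all features. Every knockout library lay below every wild type library in 41 members (70.7%, against 25.7% of all features), and above in 2 (against 24.4%). The median log2 change of the members was -0.38, that of all features 0.04, and 51 of 58 members lay below the latter. In pooled tissue, a smaller number of cells of a type and less RNA per cell cannot be told apart.

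**Figure D1:**
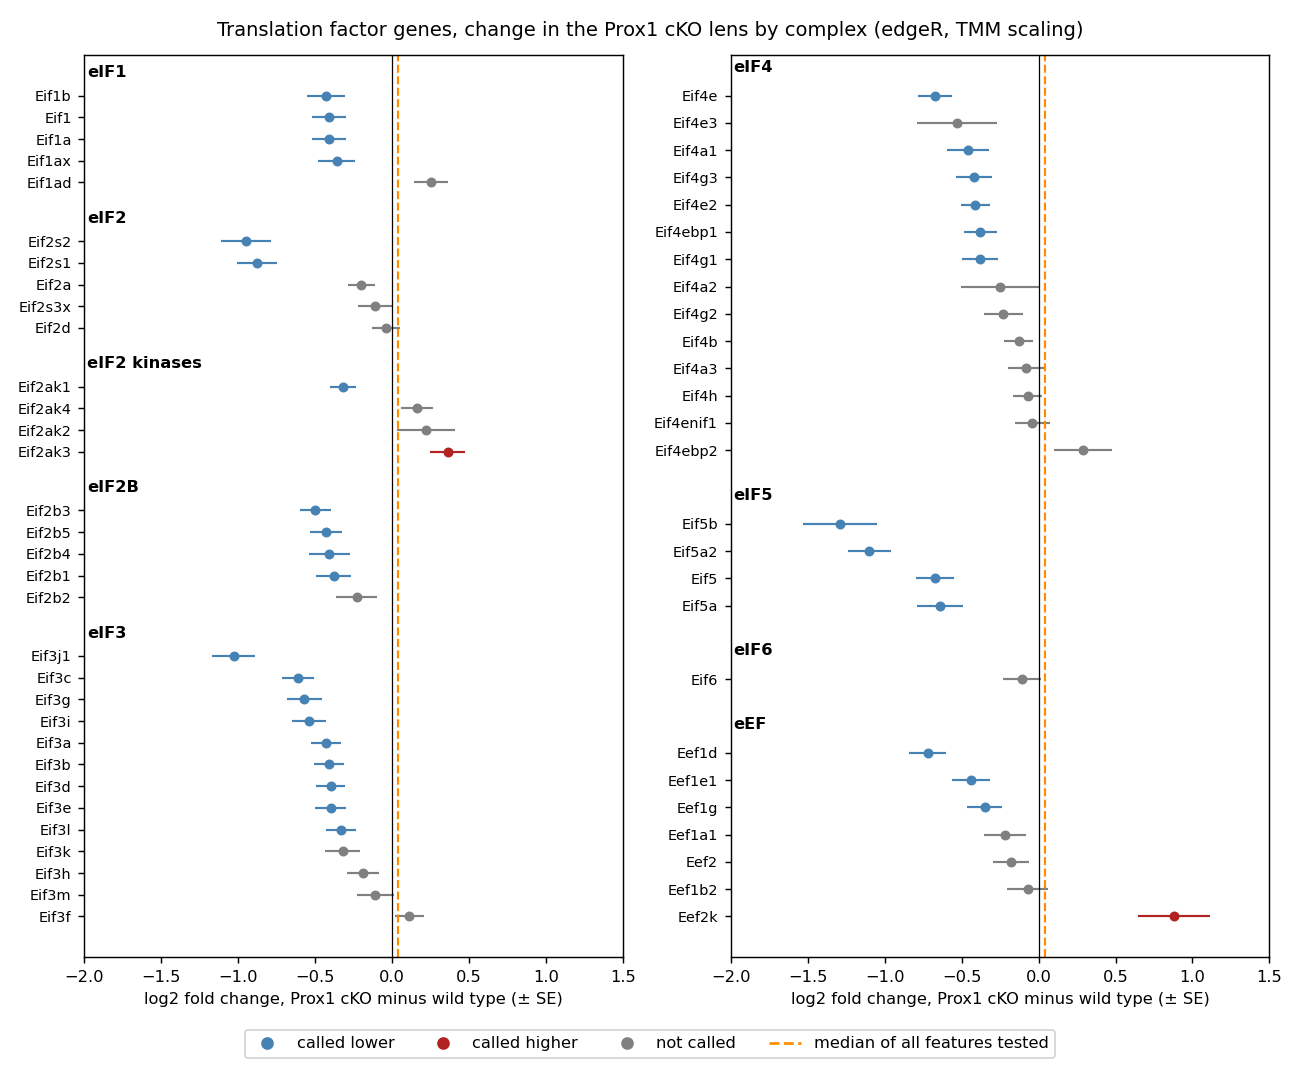
Log2 fold change (Prox1 cKO minus wild type) with its standard error for the 58 translation factor genes tested, grouped by complex or by name; blue genes were called lower, red genes higher and grey genes were not called, and the dashed line is the median of all features tested (0.04). All 4 eIF5 genes lie to the left of that line, while the eIF2 kinases lie on both sides of it.

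The count of calls changed when single libraries were left out. Each such fit has fewer libraries, and the share of all features called in it is not given. The counts below are thus not shown to be particular to these genes. Without wild type library 2, and equally without wild type library 3, 15 members were called lower and 0 higher. Without knockout library 2 there were 19 lower and 1 higher, and without knockout library 3 there were 20 lower and 1 higher. Without wild type library 1, the one with the fewest crystallin counts, 34 were lower and 2 higher. In 28 of the 33 genes called lower, wild type library 1 came nearest to the knockout of its group, with the least CPM, as it did in 85.9% of all features called lower. There were 13 members called lower whichever library was left out (Eef1d, Eif2b3, Eif2s1, Eif2s2, Eif3a, Eif3c, Eif3g, Eif3i, Eif3j1, Eif4e, Eif5, Eif5a2 and Eif5b).

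Relative to all RNA counted, the translation factors as a group were not lower. They took 2.31%, 2.12% and 1.93% of all counts in knockout libraries 1 to 3 and 2.16%, 2.05% and 1.94% in the wild type, which is 2.12 ± 0.189% against 2.05 ± 0.11% (SD, n = 3 each). These shares overlapped. With TMM scaling, which sets the levels relative to the bulk of genes, the same sums were 18758 ± 905 CPM against 23185 ± 1205 CPM. Scaling by library totals alone moved the median of all features to 0.39 and that of the members to -0.03, and it called 5 members lower and 7 higher (Eef2k, Eif1ad, Eif2ak2, Eif2ak3, Eif2ak4, Eif3f and Eif4ebp2). The share of all features called with this scaling is not given, so the 7 higher are not shown to be more than that share. The medians of eIF2, eIF4, eIF6 and eEF then turned positive, at 0.15, 0.04, 0.25 and 0.13. Those of eIF1, eIF2B and eIF3 were -0.05 each, and that of eIF5 was -0.52. The eIF2 group is set by name and also holds Eif2a and Eif2d, at 0.15 and 0.31. Its subunit genes Eif2s1, Eif2s2 and Eif2s3x were at -0.52, -0.58 and 0.25 on this scale. With totals from which the crystallins were removed, the medians were 0.13 and -0.29, with 17 members lower and 2 higher. The decrease of the group is thus one relative to the other genes of these samples. The 5 genes called lower with library totals alone, all of them also called without any one library, were Eif5b, Eif5a2, Eif3j1, Eif2s2 and Eif2s1.

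**Figure D2:**
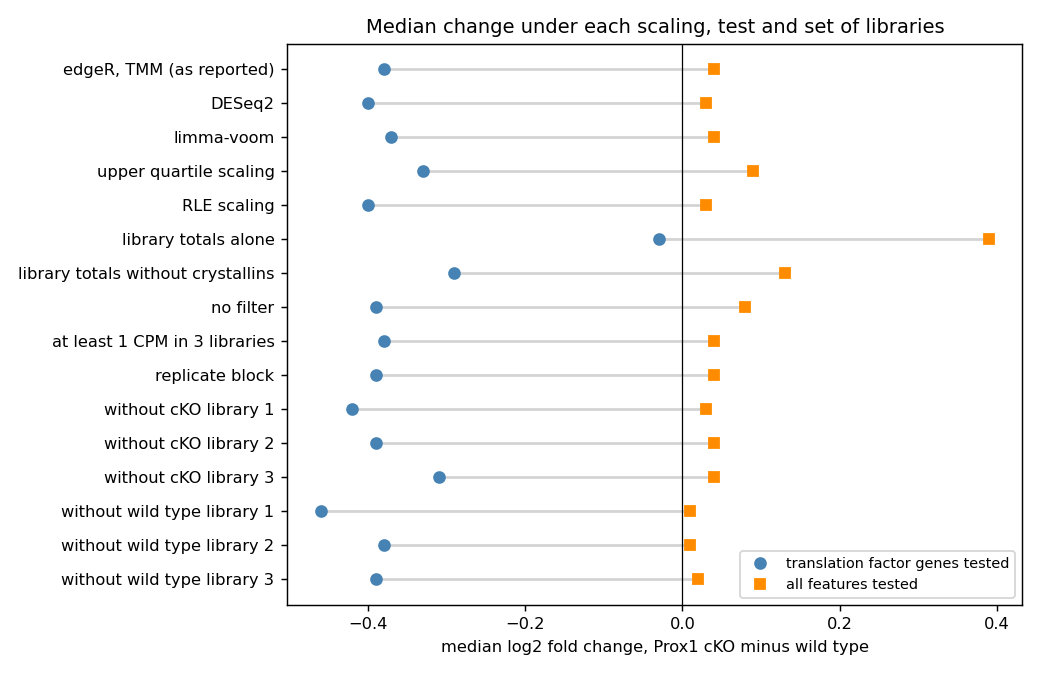
Median log2 fold change (Prox1 cKO minus wild type) of the translation factor genes tested (blue circles) and of all features tested (orange squares) under each scaling, test, filter and set of libraries. The members lie left of all features in each setting, and library totals alone shift both to the right, to -0.03 and 0.39.

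Promoters were read for the 49 members listed in the RefSeq table of the GRCm38.p6 build, in windows of 300 bases (250 before to 50 after an annotated start). The E-box CACGTG, which reads the same on both strands and is bound by factors of the MYC and USF families, was in a window of 12 members (24.5%), against 11.5% of the 10595 tested features in the table and 8.09% of all 27025 symbols. Genes can have several windows, and per window the shares were 21.9% of 64 for members and 9.59% for tested features. The following stretches are shown because the same letters stand before a RefSeq start of cap-binding complex genes, an eIF5A gene and both elongation factor 2 and its kinase, which were not all called in one direction. For Eif4e and Eif4g1 that start lies 1089 and 4414 bases inside the 5′ end of the GENCODE gene, so their stretches fall within the annotated gene. Capitals mark the E-box, and each stretch is 5′ to 3′ on the strand of the gene.
Eif4e, chr3:138527184-138527233, + strand: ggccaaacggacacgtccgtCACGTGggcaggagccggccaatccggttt
Eif4g1, chr16:20672653-20672702, + strand: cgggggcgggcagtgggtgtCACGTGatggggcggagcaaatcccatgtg
Eif4a1, chr11:69672583-69672632, - strand: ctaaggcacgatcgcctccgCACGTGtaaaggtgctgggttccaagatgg
Eif5a2, chr3:28781121-28781180, + strand: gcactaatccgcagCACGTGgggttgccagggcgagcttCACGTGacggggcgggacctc
Eef2, chr10:81176568-81176617, + strand: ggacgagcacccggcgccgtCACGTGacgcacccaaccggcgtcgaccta
Eef2k, chr7:120842780-120842829, + strand: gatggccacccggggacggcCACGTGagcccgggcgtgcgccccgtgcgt

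Among these 6 genes, Eif4e, Eif4g1, Eif4a1 and Eif5a2 were called lower, Eef2 was not called and Eef2k was called higher. The other members with an E-box were Eif1b, Eif3a, Eif3f, Eif3k, Eif4h and Eif5a. The 12 had a median log2 change of -0.41, with 7 called lower and 1 higher. The 35 tested members without one had a median of -0.33, with 19 lower and 1 higher. Across tested features the medians were -0.03 with an E-box and 0.04 without. A match to these letters is a description of the window and not a bound site.

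Many mRNAs of the translation machinery begin with a C followed by a run of pyrimidines, through which mTORC1 signalling controls their translation. A C followed by 4 pyrimidines exactly at an annotated start was found in 3 of the 49 members (6.12%), against 3.06% of tested features. These were Eif3f, Eif2s3x and the untested Eif2c5. The search depends on the exact base of the RefSeq start, which for Eif2s3x lies 211 bases from the 5′ end of the GENCODE gene and for Eif3f 2 bases. A member without a match, such as any elongation factor gene, is thus not shown to lack such a run. Eif3f and Eif2s3x are shown because neither was called, in complexes where other subunits were lower. Capitals mark the first 10 bases from that RefSeq start.
Eif3f, chr7:108934395-108934424, + strand: gctcttctgttctaggctctCTCTCTTTCT
Eif2s3x, chrX:94212642-94212671, - strand: ggcggctgccgagcattttcCTTTTCTCTC

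The eIF1 group sets the accuracy of start codon selection. Its 4 classical members were called lower, with log2 changes of -0.43 for Eif1b, -0.41 for Eif1 and for Eif1a, and -0.36 for Eif1ax, and all of their knockout libraries lay below the wild type libraries. Eif1 (chr11:100319885-100322096) had 136, 132 and 109 CPM in the knockout against 154, 170 and 178 in the wild type. Knockout library 3 was the lowest, and the adjusted p was 0.0252 by edgeR. Leaving out a library ended each of these 4 calls for at least 1 choice of library. Eif1ad, a nuclear protein with an eIF1A-like domain and the member with the largest uncalled change, had a log2 change of 0.25 (adjusted p = 0.119 by edgeR), with overlapping groups. It was called higher without knockout library 3, at 0.34 (adjusted p = 0.0398 by edgeR), and with library totals alone, at 0.59 (adjusted p = 0.0134 by edgeR). Of its exon bases, 15.3% overlap Banf1 on the other strand, which had a log2 change of -0.18, and the library kit keeps no strand.

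The eIF2 heterotrimer delivers the initiator tRNA, and its alpha and beta subunit genes were called lower while the gamma subunit gene was not. Eif2s1, the alpha subunit that the stress kinases phosphorylate (chr12:78861819-78887010), had 118, 124 and 105 CPM in the knockout against 182, 248 and 209 in the wild type. The highest knockout library lay well under wild type library 1, the lowest of its group. Eif2s1 was 1.84-fold lower (log2 change -0.88 ± 0.131 SE, adjusted p = 0.00184 by edgeR). Eif2s2, the beta subunit (chr2:154871410-154892935), had 10.9, 9.18 and 9.08 CPM against 15.6, 21 and 20.1. These groups were also apart, and the decrease was 1.93-fold (log2 change -0.95 ± 0.161 SE, adjusted p = 0.00348 by edgeR). Of the Eif2s2 transcripts, 10.2% of the stretches of 51 bases, the read length, also occur in other annotated genes. Over the 6 fits that each left out a library, the log2 change ran from -1.02 to -0.79 for Eif2s1 and from -1.11 to -0.90 for Eif2s2.

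The gamma subunit gene Eif2s3x, which binds the initiator tRNA and GTP (chrX:94188707-94212862), had 282, 289 and 230 CPM in the knockout against 290, 286 and 287 in the wild type. Only knockout library 3 was distinctly low, the groups overlapped, and the log2 change was -0.11 ± 0.11 SE (adjusted p = 0.481 by edgeR). The within-library ratio of Eif2s3x to Eif2s1 counts, which does not depend on library scaling, was 2.39, 2.33 and 2.2 in the knockout against 1.59, 1.15 and 1.37 in the wild type. Every knockout ratio was higher, by 1.69-fold, with an exact two-sided permutation p of 0.1, the smallest that 3 against 3 libraries can give, and 0.333 after adjustment over 10 pairs of genes. Of the Eif2s3x transcript, 34.6% of the stretches of 51 bases, the read length, occur in other annotated genes as well.

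The Y-linked copy Eif2s3y, which males express beside Eif2s3x, had 29.5, 13.9 and 30.8 CPM in the knockout against 42.1, 87.4 and 65.2 in the wild type. It was lower in each knockout library (log2 change -1.38 ± 0.329 SE, adjusted p = 0.0146 by edgeR). Xist, expressed from the inactive X chromosome of females, had 14.6, 15.2 and 20 CPM against 16.7, 4.98 and 14.7, and the groups overlapped (adjusted p = 0.391 by edgeR). Its lowest value came from wild type library 2, which had the highest Eif2s3y. The part of the sexes of the pooled embryos in these values was not tested. The sums of Eif2s3x and Eif2s3y were 312, 303 and 261 CPM against 332, 374 and 353. The groups of sums did not overlap.

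Eif2a, which binds initiator tRNA by another route, had the largest uncalled change of this group (log2 change -0.20, adjusted p = 0.117 by edgeR). Eif2c5 had between 0 and 2 counts in each library and was not tested.

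The 4 kinases that phosphorylate eIF2 alpha were called in both directions or not at all, and their median log2 change was 0.19. With library totals alone that median was 0.53, and Eif2ak2, Eif2ak3 and Eif2ak4 were called higher, at log2 changes of 0.56, 0.70 and 0.51 (adjusted p = 0.0467, 0.00736 and 0.0257 by edgeR). Eif2ak3 (PERK, the sensor of stress in the endoplasmic reticulum, chr6:70844515-70905245) had 26.2, 27.2 and 27.7 CPM in the knockout against 23.1, 19.1 and 21 in the wild type. All knockout libraries were higher, and the increase was 1.28-fold (log2 change 0.36 ± 0.112 SE, adjusted p = 0.0395 by edgeR). This call was lost without any one library other than wild type library 1, with adjusted p up to 0.184 by edgeR, and also with DESeq2 (adjusted p = 0.0579) and without the filter (adjusted p = 0.0754 by edgeR). Eif2ak1, the heme-regulated kinase, had 54.9, 51.2 and 50.2 CPM against 65.2, 65.5 and 64.4. Its groups were apart with tight replicates, at a log2 change of -0.32 ± 0.0838 SE (adjusted p = 0.0219 by edgeR). Of its exon bases, 11.6% overlap Aimp2 on the other strand, which was itself lower (log2 change -0.56, adjusted p = 0.0193 by edgeR). Leaving out library 2 or 3 of either group ended the call. Eif2ak2 (PKR, activated by double-stranded RNA) and Eif2ak4 (GCN2, activated by uncharged tRNA) had log2 changes of 0.22 and 0.16 with adjusted p of 0.392 and 0.253 by edgeR, and both had overlapping groups.

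eIF2B recycles eIF2 by exchanging its GDP for GTP. Of its 5 subunit genes, 4 were called lower, at log2 changes of -0.50 for Eif2b3 (gamma), -0.43 for Eif2b5 (the catalytic epsilon subunit), -0.41 for Eif2b4 (delta) and -0.38 for Eif2b1 (alpha). Eif2b2 (beta) was at -0.23 (adjusted p = 0.201 by edgeR). Eif2b4 was not called with limma-voom (adjusted p = 0.052) or upper quartile scaling (adjusted p = 0.0634 by edgeR), and none of the 4 was called with library totals alone. Eif2b3 (chr4:117019402-117087306) had 29, 29.1 and 28.6 CPM in the knockout against 37.7, 44.7 and 40.5 in the wild type. The knockout libraries lay almost on one value, below all of the wild type, and the adjusted p was 0.00734 by edgeR. It was the one eIF2B gene called in all 6 fits without a library.

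eIF3 is the largest initiation factor and holds the small subunit together with the other factors. Of 14 genes, 13 were tested, 9 were called lower and none higher, the median log2 change was -0.40, and in 11 of them the knockout libraries all lay below the wild type. On the per-length scale of the deposited RPKM values, the level of the 13 tested genes in the wild type ran from 3.47 for Eif3j1 to 201 for Eif3h. The length behind the RPKM is that of the gene model used by the authors, so a long model with little-used exons lowers the value.

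Eif3j1, a loosely attached subunit (chr2:122028546-122056598), had 11.2, 12.2 and 10.2 CPM in the knockout against 20.2, 25.3 and 23.4 in the wild type. The groups were far apart for their spread. Eif3j1 was 2.05-fold lower (log2 change -1.03 ± 0.138 SE, adjusted p = 0.00114 by edgeR), and between -1.16 and -0.98 without any one library. Its reads are partly uncertain, since 50.7% of its stretches of 51 bases occur in other genes, Eif3j2 above all, and 19% of its exon bases overlap Spg11 on the other strand. Spg11 had a log2 change of -0.44 (adjusted p = 0.0303 by edgeR), less than that of Eif3j1. Eif3j2 itself had between 0 and 9 counts in each library and was not tested.

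Other eIF3 genes called lower were Eif3c, Eif3g, Eif3i and Eif3a. Eif3c, which contacts eIF1 and eIF5 (chr7:126546455-126566411), had 321, 340 and 320 CPM in the knockout against 458, 546 and 497 in the wild type. No knockout library came near the wild type, and the decrease was 1.53-fold (log2 change -0.61 ± 0.105 SE, adjusted p = 0.00357 by edgeR). Eif3g and Eif3i, which sit with Eif3b in one module, had log2 changes of -0.57 and -0.54 (adjusted p = 0.00781 and 0.00812 by edgeR). Eif3a, the scaffold subunit (chr19:60761117-60790658), had 546, 565 and 561 CPM against 740, 752 and 761. Both groups were tight, and the decrease was 1.35-fold (log2 change -0.43 ± 0.096 SE, adjusted p = 0.0112 by edgeR). The other 4 called lower had log2 changes between -0.41 and -0.33, among them Eif3d with 43.3% of its exon bases under a transcript of the other strand.

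Of the tested eIF3 genes, 4 were not called. Eif3k had the largest change among them (log2 change -0.32, adjusted p = 0.0575 by edgeR), and Eif3h, the one with the highest RPKM, had -0.19 (adjusted p = 0.203 by edgeR). Eif3f, which was picked out after its values were seen, had 251, 272 and 239 CPM in the knockout against 242, 226 and 238 in the wild type. It was the one eIF3 gene with a log2 change above 0 (0.11 ± 0.0939 SE), its groups overlapped, and the adjusted p was 0.387 by edgeR (0.46 and 0.0192 with library totals alone). Eif3f and Eif3h encode the pair of eIF3 subunits with an MPN domain.

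**Figure D3:**
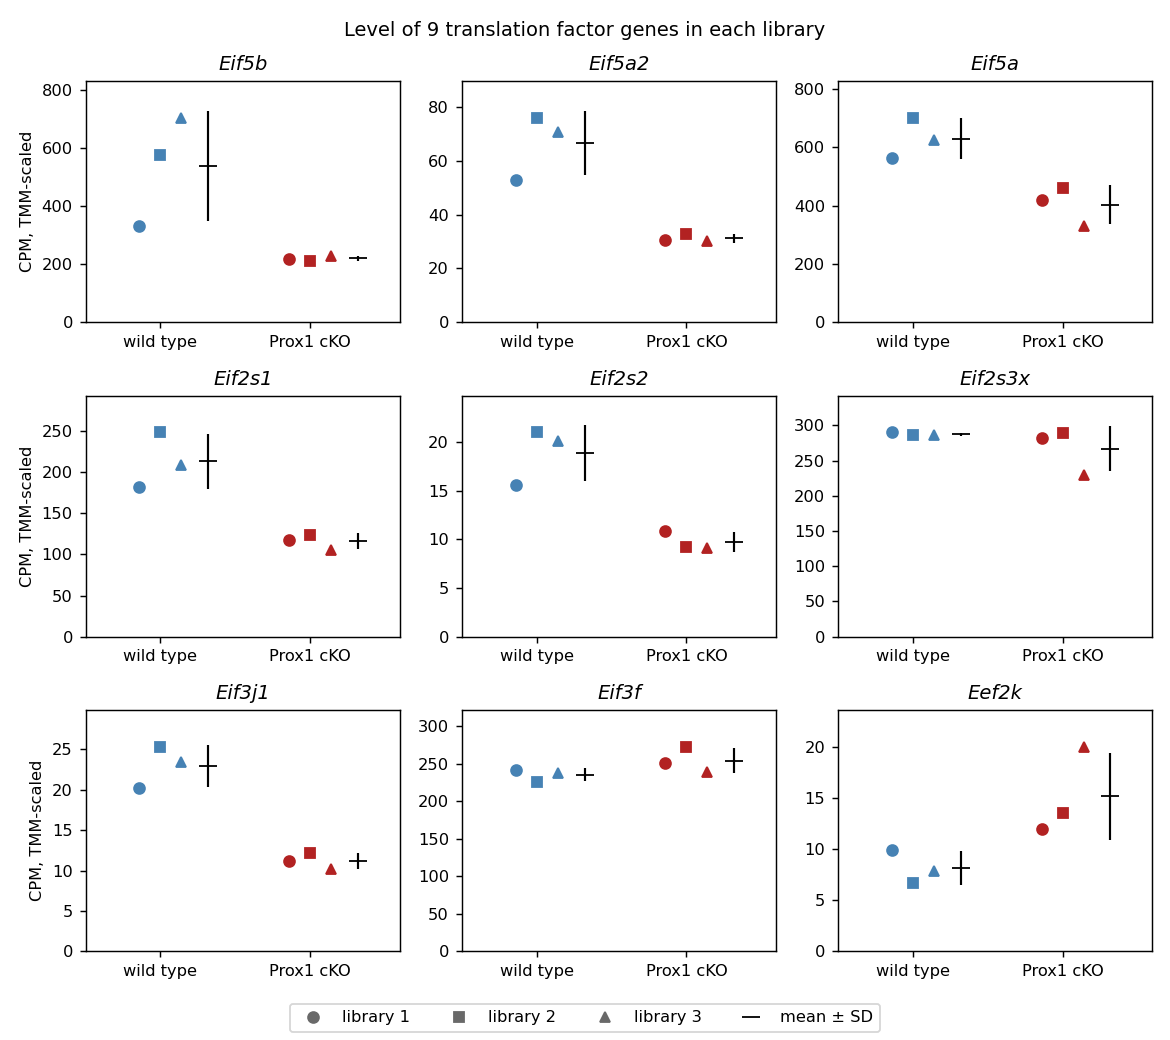
TMM-scaled CPM of 9 translation factor genes in each library (marker shape gives the library number within its group), with the mean and SD of 3 libraries in black; each panel has its own axis from 0. Eif5b, Eif5a2, Eif5a, Eif2s1, Eif2s2 and Eif3j1 have no overlap between groups with the knockout lower, Eef2k has none with the knockout higher, and Eif2s3x and Eif3f overlap.

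The eIF4 factors recognise the cap and unwind the mRNA. Of 16 genes grouped here by name, 14 were tested, 6 were called lower and none higher. Their median log2 change was -0.32 (0.04 with library totals alone). The 16 also hold genes outside these roles, such as those of the eIF4E-binding proteins, and Eif4ebp1 is among the 6 called lower. Eif4e, the cap-binding protein (chr3:138526179-138559696), had 176, 155 and 146 CPM in the knockout against 229, 267 and 266 in the wild type. Knockout library 1 was the highest of its group and still lay below wild type library 1. The decrease was 1.6-fold (log2 change -0.67 ± 0.11 SE, adjusted p = 0.0029 by edgeR) and stayed between -0.79 and -0.61 without any one library. Eif4e2, a cap-binding relative that does not recruit eIF4G, was called lower at a log2 change of -0.41 (adjusted p = 0.0122 by edgeR). The count ratio of Eif4e2 to Eif4e was 0.553, 0.687 and 0.629 in the knockout against 0.542, 0.504 and 0.503 in the wild type. The ratio was higher in every knockout library, with the smallest exact permutation p possible, 0.1, and 0.333 adjusted over the 10 pairs. Eif4e3 had between 11 and 57 counts in each library, and its log2 change of -0.53 ± 0.262 SE was the largest uncalled one (adjusted p = 0.148 by edgeR).

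The scaffold genes Eif4g1 and Eif4g3, which link the cap to the small subunit, were called lower at log2 changes of -0.38 and -0.42 (adjusted p = 0.0337 and 0.0265 by edgeR). The Eif4g1 call was lost without any one library other than wild type library 1. That of Eif4g3 was lost without knockout library 2, wild type library 2 or wild type library 3. With library totals alone neither was called, at -0.04 and -0.07. Eif4g2, whose protein lacks the eIF4E binding site, had the highest wild type RPKM of the group, 329 ± 22.4 (SD, n = 3). Its CPM was 2332, 2494 and 2145 in the knockout against 2608, 2909 and 2683 in the wild type. The groups were apart, but the log2 change of -0.23 missed the threshold (adjusted p = 0.181 by edgeR). The ratios of Eif4g2 to Eif4g1 and of Eif4g3 to Eif4g1 overlapped between the groups.

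Of the helicase genes, Eif4a1 was called lower (log2 change -0.46, adjusted p = 0.0343 by edgeR), and 28.3% of its stretches of 51 bases also occur elsewhere, among others in a pseudogene. The Eif4a1 call was lost without library 2 or 3 of either group. Eif4a2 had 606, 282 and 537 CPM in the knockout against 610, 490 and 595 in the wild type. Knockout library 2 held less than any other library while knockout libraries 1 and 3 lay within the wild type range. The log2 change was -0.25 ± 0.252 SE (adjusted p = 0.468 by edgeR), and it was 0.02 without that library. The ratio of Eif4a2 to Eif4a1 followed the same library, at 4, 1.94 and 4.96 against 3.57, 2.48 and 3.16 (exact permutation p = 0.8).

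The eIF4E-binding proteins hold eIF4E back until mTORC1 phosphorylates them. Eif4ebp1 had 25.6, 23.1 and 21.3 CPM in the knockout against 30.1, 31.2 and 30.5 in the wild type. These groups were apart, at a log2 change of -0.38 ± 0.107 SE (adjusted p = 0.0268 by edgeR). Eif4ebp2 had 43.2, 68 and 68.3 CPM against 57, 46.3 and 42.3. Knockout libraries 2 and 3 exceeded the wild type, knockout library 1 did not, and the log2 change was 0.29 ± 0.19 SE (adjusted p = 0.261 by edgeR). Eif4ebp2 was called higher without knockout library 1, at 0.49 (adjusted p = 0.0324 by edgeR), and with library totals alone, at 0.62 (adjusted p = 0.0273 by edgeR). The ratio of Eif4ebp2 to Eif4ebp1 was 1.69, 2.94 and 3.21 against 1.9, 1.49 and 1.39, with overlap (exact permutation p = 0.2, adjusted 0.5). Eif4ebp3 had no count in any library. Eif4ebp1 was no longer called when library 2 or 3 of either group was left out.

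All 4 genes of the eIF5 group were called lower, with a median log2 change of -0.89. This group is set by name and is not a single complex. Eif5b, the GTPase that joins the ribosomal subunits (chr1:37998010-38055579), had 219, 211 and 228 CPM in the knockout against 331, 576 and 704 in the wild type. The knockout libraries were nearly equal, while the wild type spread widely, with wild type library 1 the lowest. Eif5b had the greatest fold decrease of the members called, 2.45-fold (log2 change -1.29 ± 0.238 SE, adjusted p = 0.00497 by edgeR), and it ran from -1.59 to -1.08 without any one library. Its 3′ neighbour on the other strand, Rev1, covers 16.8% of its exon bases and had a log2 change of 0.01 (adjusted p = 0.932 by edgeR).

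Eif5, the protein that makes eIF2 hydrolyse GTP at the start codon (chr12:111538016-111546752), had 367, 377 and 384 CPM in the knockout against 504, 656 and 639 in the wild type. The knockout was tight and below every wild type library, with a 1.6-fold decrease (log2 change -0.67 ± 0.124 SE, adjusted p = 0.00486 by edgeR).

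eIF5A carries the hypusine modification and keeps elongation and termination going at difficult sequences. Eif5a, its widely expressed gene (chr11:69916714-69921958), had 419, 460 and 331 CPM in the knockout against 563, 701 and 626 in the wild type. The groups were apart, at 1.56-fold (log2 change -0.64 ± 0.147 SE, adjusted p = 0.0125 by edgeR), and the adjusted p rose to 0.0523 without wild type library 2. Eif5a2, the second gene, whose promoter stretch above holds a pair of E-boxes (chr3:28781276-28798846), had 30.5, 32.9 and 30 CPM against 53, 76 and 70.9. All knockout libraries lay far below wild type library 1. The decrease was 2.14-fold (log2 change -1.10 ± 0.14 SE, adjusted p = 0.000932 by edgeR). The count ratio of Eif5a2 to Eif5a was 0.0727, 0.0715 and 0.0906 in the knockout against 0.0942, 0.108 and 0.113 in the wild type. This ratio was lower in every knockout library by 1.35-fold, with an exact permutation p of 0.1, the smallest possible, and 0.333 after adjustment.

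The eIF5 sum was also lower on the scale of library totals. It was 0.124%, 0.119% and 0.106% of all counts in the knockout against 0.143%, 0.169% and 0.17% in the wild type. No other group of genes had all knockout shares below all wild type shares. Eif6, which keeps the large subunit from joining too early, had 67.4, 71.3 and 55.6 CPM in the knockout against 66, 78.8 and 64.5 in the wild type. These overlapped, at a log2 change of -0.11 (adjusted p = 0.534 by edgeR).

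**Figure D4:**
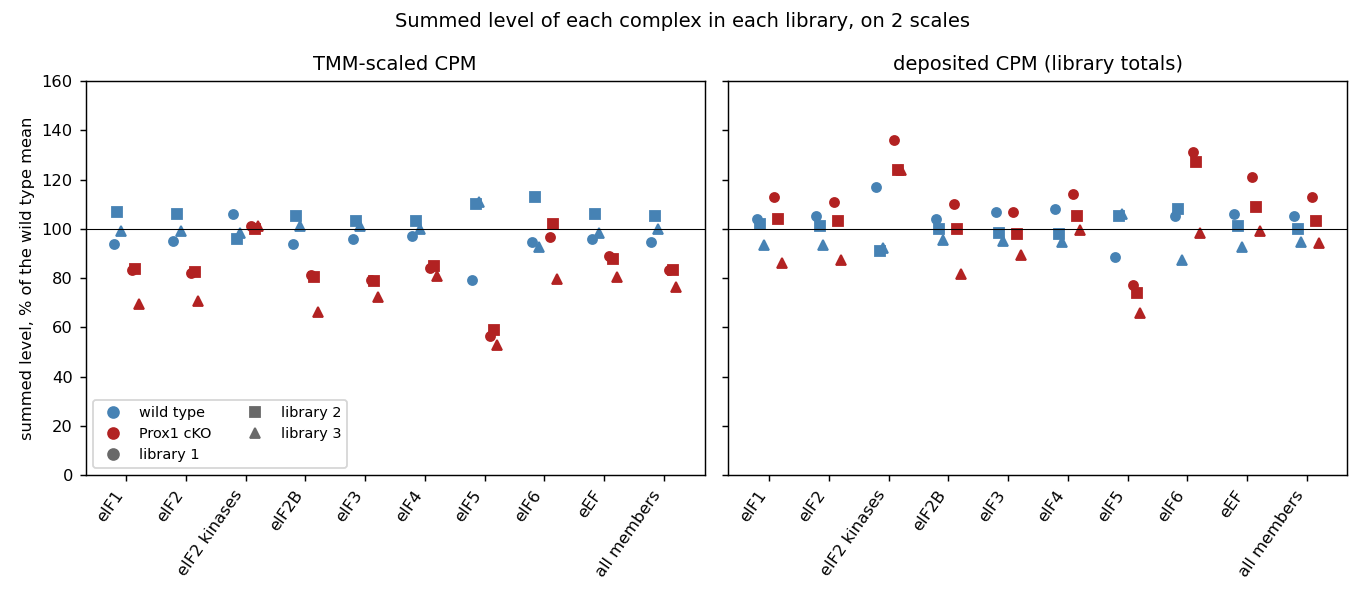
Summed level of the genes of each complex or name group in each library, as a percent of the wild type mean, on TMM-scaled CPM (left) and on deposited CPM, which follows library totals (right). The eIF5 group stays below the wild type on both scales, with knockout means of 56.2% and 72.4%, whereas all members together change from 80.9% to 103%.

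Eef1a1 and Eef2 had the highest RPKM of all members in the wild type. The levels were 1878 ± 141 for Eef1a1, which delivers aminoacyl-tRNA, and 737 ± 65.9 for Eef2, which moves the ribosome (SD, n = 3 each). Eef1a1 had 4842, 4540 and 4210 CPM in the knockout against 5010, 5746 and 5127 in the wild type. The knockout libraries lay just under the wild type, without passing the test (log2 change -0.22, adjusted p = 0.234 by edgeR), and 39.8% of the stretches of 51 bases are shared with pseudogenes and other genes. Eef2 had 2198, 2384 and 2261 CPM against 2559, 2604 and 2563. Here too the groups were apart, and the log2 change was -0.18 (adjusted p = 0.271 by edgeR). Eef1a2, the form of neurons and muscle, had between 4 and 16 counts in each library and was not tested.

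Of the 3 subunit genes of the exchange factor that reloads eEF1A with GTP, Eef1d and Eef1g were called lower. Eef1d (chr15:75894205-75909556) had 183, 157 and 147 CPM in the knockout against 235, 285 and 282 in the wild type. The groups were apart, and the decrease was 1.65-fold (log2 change -0.72 ± 0.122 SE, adjusted p = 0.0034 by edgeR). Eef1g, another subunit, had a log2 change of -0.35 (adjusted p = 0.0447 by edgeR), with 44% of its stretches shared with other genes. The Eef1g call was lost without library 2 or 3 of either group. Eef1b2, the third, had 660, 705 and 540 CPM against 622, 731 and 641 and was not called (log2 change -0.07, adjusted p = 0.724 by edgeR). Eef1e1, which belongs to the multi-tRNA synthetase complex, was called lower (log2 change -0.44, adjusted p = 0.0271 by edgeR).

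Eef2k, the kinase that inhibits eEF2, moved the other way (chr7:120842831-120907450). It had 11.97, 13.53 and 19.97 CPM in the knockout against 9.95, 6.70 and 7.83 in the wild type. All knockout libraries were higher, knockout library 3 by most, and knockout library 1 lay close to wild type library 1. The increase was 1.84-fold (log2 change 0.88 ± 0.233 SE, adjusted p = 0.0223 by edgeR). Without knockout library 3, wild type library 2 or wild type library 3 the call was lost, with log2 changes from 0.64 to 1.03 over the 6 fits. Knockout library 3 also had the highest summed CPM of mesenchyme, pigment cell, surface ectoderm and skeletal muscle markers. It was highest too for endothelium and macrophages, though close to knockout library 2, but not for neural retina, neuron or erythroid markers. The part of cells of other tissues in the Eef2k level was not tested.

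Genes outside the name rule that act with these factors were read from 4 lists, to be set against the 16.8% of all features called lower and 15.9% called higher. Of 17 tested partners at the cap, the poly(A) tail and in scanning, 4 were called lower and 1 higher, with a median log2 change of -0.15. Library totals alone called 0 of them lower and 5 higher, and without wild type library 2 or 3 there were 2 lower. Abce1, the ATPase that recycles ribosomes, had 264, 255 and 223 CPM in the knockout against 359, 392 and 350 in the wild type, which is 1.48-fold lower (log2 change -0.57, adjusted p = 0.00503 by edgeR). Ncbp1, a subunit of the nuclear cap-binding complex, had a log2 change of -0.48 (adjusted p = 0.0102 by edgeR). Cyfip1, which can bind eIF4E, was higher, at 0.45 (adjusted p = 0.00812 by edgeR), a call lost without wild type library 3. Of its exon bases, 12.5% overlap Nipa2 on the other strand.

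Of 15 tested genes of mTORC1 and the kinases upstream of eIF4E and the binding proteins, 4 were called lower and none higher, with a median of -0.24. Among the 4 was Mtor itself, with 135, 173 and 197 CPM in the knockout against 246, 309 and 297 in the wild type. Its log2 change was -0.76 (adjusted p = 0.00781 by edgeR), and that of Ddit4 was -0.28, near the threshold (adjusted p = 0.0491 by edgeR). Tsc2, part of the complex that restrains mTORC1 (chr17:24595816-24632630), had 97.5, 119 and 144 CPM in the knockout against 264, 480 and 578 in the wild type. The groups were far apart, and wild type library 1 had the least, as for Eif5b. Tsc2 was 3.67-fold lower (log2 change -1.88 ± 0.275 SE, adjusted p = 0.00173 by edgeR) and ran from -2.18 to -1.66 without any one library. Of its exon bases, 7.2% overlap Pkd1 on the other strand. Its partner gene Tsc1 was not called (log2 change -0.07). Mknk2, a kinase that phosphorylates eIF4E, had 103, 111 and 104 CPM against 151, 197 and 212, a decrease of 1.76-fold (log2 change -0.82, adjusted p = 0.00255 by edgeR). Tsc2 and Mknk2 were both called with library totals alone, at log2 changes of -1.50 and -0.45.

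Of 9 tested genes of the stress response around eIF2, 3 were called lower and none higher, with a median of -0.22 (1 lower and 1 higher with library totals alone). Atf4, the transcription factor whose mRNA is translated when eIF2 alpha is phosphorylated, had 145, 137 and 123 CPM in the knockout against 183, 233 and 239 in the wild type. It was lower in every knockout library (log2 change -0.69, adjusted p = 0.00448 by edgeR), and with library totals alone the change was -0.33 (adjusted p = 0.0615 by edgeR). Atf5, a related factor, had a log2 change of -0.96 (adjusted p = 0.00333 by edgeR). Ddit3 and Ppp1r15a, genes that the response induces, were not called, at -0.22 and 0.01.

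Of 12 tested genes that help elongation, modify eIF5A or end translation, 6 were called lower and 1 higher, and the median log2 change was -0.46. With library totals alone 2 were lower and 2 higher. Hbs1l, the GTPase that rescues stalled ribosomes together with Pelota, had 111, 112 and 100 CPM in the knockout against 212, 275 and 290 in the wild type. The knockout stood at less than the lowest wild type library throughout, 2.41-fold lower (log2 change -1.27 ± 0.131 SE, adjusted p = 0.000345 by edgeR). It was called with library totals alone as well, at -0.90, but 31.3% of its stretches of 51 bases occur in other genes. Etf1, the release factor that reads stop codons, was 1.68-fold lower (log2 change -0.75, adjusted p = 0.00404 by edgeR). Dhps and Dohh, the pair of enzymes that make hypusine on eIF5A, had log2 changes of -0.56 and -0.72 (adjusted p = 0.00849 and 0.0149 by edgeR). Gtpbp2, another rescue GTPase, was the one called higher (log2 change 0.38, adjusted p = 0.0289 by edgeR), and it was not called without knockout library 1 or without any one wild type library.

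Of the 10 pairs of related genes compared as count ratios within libraries, 3 had no overlap between the groups: Eif2s3x to Eif2s1, Eif4e2 to Eif4e and Eif5a2 to Eif5a. Each of the 3 had an exact permutation p of 0.1, or 0.333 after adjustment, so none is shown to differ. The other 7 overlapped. Eif1 to Eif1b was 2.31, 2.56 and 2.52 in the knockout against 2.25, 2.55 and 2.43 in the wild type, and Eif1a to Eif1ax was 0.528, 0.47 and 0.523 against 0.553, 0.53 and 0.489. These ratios differed by 0.03 and -0.05 on the log2 scale. With 3 libraries per group no pair could pass a threshold of 0.05.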

How the data were processed

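The 6 deposited tables hold raw counts, CPM and RPKM for every feature, per the file headers. The authors' CPM is the count scaled by the library total, and the authors' RPKM divides it by a length per feature. The build GRCm38 and the tool edgeR come per the submitters' processing notes, and the aligner, the counter and the annotation were not given in the sources used here. Reads were 51 bp, single-end, from a kit that keeps no strand, per the labels. Of 41128 features, 26 whose count and CPM disagreed were left out (at most 0.0636% of counts). Counts were tested with edgeR 4.0.16 in R 4.3.3: filterByExpr with a minimum count of 10, TMM scaling, quasi-likelihood test without covariates, Benjamini-Hochberg adjustment over all 14271 features tested, threshold 0.05. DESeq2 1.42.0 and limma 3.58.1 (voom) were alternatives, as were other scalings, other filters, a replicate block and leaving out each library. A count of 0 allows up to 3 counts, or 0.106 to 0.33 CPM (counting error only).

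Named members were, per complex, up to 5 called in each direction with the largest changes, the highest RPKM, the largest uncalled change, both genes of fixed pairs, all kinases and eIF4E-binding proteins, Eef2k and Eif6, and of each pathway list the 2 largest called changes in each direction. Eif3d, Eif3f, Mtor, Ddit4, Tsc1, Dhps, Dohh, Ddit3, Ppp1r15a and the members with promoter motifs were named after values were seen. Members and lists were chosen with earlier results of these data known. Ratio pairs were tested by exact two-sided permutation with Benjamini-Hochberg adjustment over 10 pairs.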

Additional observations from a re-analysis of the deposited data

How the results depend on the processing

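Under DESeq2, limma-voom, upper quartile and RLE scaling, no filter and a filter of 1 CPM in 3 libraries, between 30 and 34 members were called lower, against 33 reported. Library totals alone called 12 members, 5 lower and 7 higher, and totals without crystallins 19, of which 17 lower. Leaving out 1 library gave 15 to 36 called, 15 to 34 lower and 0 to 2 higher. The shares of all features called under these alternatives are not given. Those higher were 1 with DESeq2, without the filter and with the replicate block. Whether the replicate numbers pair the samples was not tested. The correlations of deviations were -0.0276, 0.254 and 0.111 for same-numbered libraries 1 to 3. Between libraries of different numbers they ran from -0.224 to 0.0878. The replicate block gave 31 lower, without Eif2b1 (adjusted p = 0.0547 by edgeR) and Eif2b4 (0.0717), and did not call Eif2ak3 (0.0673). Prox1 with library totals alone was at -0.34 (adjusted p = 0.053 by edgeR). The number of members under the median of all features, a measure added after the data were seen, was between 51 and 53 throughout. With library totals alone these log2 changes turned positive: Eef1a1 0.13, Eef1b2 0.29, Eef1g 0.01, Eef2 0.17, Eif2a 0.15, Eif2ak1 0.03, Eif2b2 0.13, Eif2d 0.31, Eif2s3x 0.25, Eif3h 0.17, Eif3k 0.04, Eif3l 0.02, Eif3m 0.25, Eif4a2 0.11, Eif4a3 0.27, Eif4b 0.22, Eif4enif1 0.31, Eif4g2 0.12, Eif4h 0.28 and Eif6 0.25. With totals without crystallins they were Eef1b2 0.03, Eif2d 0.04, Eif4a3 0.01, Eif4enif1 0.05 and Eif4h 0.01, and with upper quartile scaling Eif2d 0.01 and Eif4enif1 0.01. Leaving out 1 library, the log2 change ran from -0.15 to 0.04 for Eef1b2 and from -0.17 to 0.03 for Eif4a3 (positive without knockout library 3), and from -0.47 to 0.02 for Eif4a2 (positive without knockout library 2). The cause was not tested, beyond the shift of the median of all features with the scaling. The untested members had between 0 and 16 counts per library, under the filter.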
